A study of Mus musculus with 8 samples.

Results

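The genes described here encode the collagens, the tissue inhibitors of metalloproteinases (TIMPs), the matrix metalloproteinases (MMPs), the lysyl oxidases and the ADAMTS proteases. They were chosen by symbol alone, as every row whose symbol was a Col, Timp, Mmp, Lox or Loxl, or Adamts name with its number. Of the 22504 rows of the expression table, 95 matched, and 36 of these reached 0.5 FPKM (fragments counted on a gene, divided by its length and by the depth of the library) in at least 2 of the 8 samples. These 36 were 18 of 44 collagen genes, 3 of 4 Timp genes, 9 of 23 Mmp genes, 1 of 5 lysyl oxidase genes and 5 of 19 Adamts genes. All 8 samples came from Fah-/- mice on a 129S4 background, and their age and sex were not given in the sources used here. Fah encodes the last enzyme of tyrosine breakdown, and NTBC is a drug that blocks an earlier step and so protects the liver of these mice. The 3 C 8w samples were livers after 8 weeks of moderate chronic liver injury (MCLI), in which NTBC was lowered to 2.5%. The 3 C 8w + A 4w samples (the severe injury group) were livers after the same 8 weeks followed by 4 weeks of severe acute liver injury (SALI), in which NTBC was removed. The 2 C 12w samples came from mice with 12 weeks of MCLI and were labelled tumor (the tumor group). No uninjured liver and no liver beside a tumor was analysed here, so time and tissue cannot be told apart when tumors and C 8w livers are compared. Where the severe injury group is set against C 8w, the drug withdrawal and the 4 further weeks cannot be told apart, and where it is set against the tumors, drug withdrawal and tissue cannot.

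Collagens are the main structural proteins of the extracellular matrix. In the liver, stellate cells and portal fibroblasts are the main source of fibrillar collagens after injury, and endothelial cells and other cells lay down basement membrane collagens. MMPs and ADAMTS proteases cut matrix proteins, TIMPs block the MMPs by binding their active site, and lysyl oxidases cross-link collagen and elastin fibres.

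The identity of the samples was checked first. Fah was measured at 13.5 to 16.8 FPKM in the C 8w and C 12w samples and at 5.02 to 6.36 FPKM in the C 8w + A 4w samples, and a value over the whole gene does not show whether the transcript is intact. One protocol label names retinas as the tissue, but 11 of 12 retina markers were under 0.5 FPKM in every sample, and Hnf4a, a hepatocyte transcription factor, was at 81.2 to 104 FPKM. The C 8w + A 4w samples carry another kind of sample code than the other 5, and values of a few genes set the 2 kinds apart: Alb was listed at 0 in the 5 C 8w and C 12w samples and at 12946 to 16950 FPKM in C 8w + A 4w, and Gapdh was at 0.098 to 0.247 against 68.2 to 99.9 FPKM. Kind of code and group therefore cannot be told apart in any comparison with C 8w + A 4w, and only C 12w against C 8w stayed within 1 kind of code. The 3 comparisons share samples and are not independent of one another. Throughout, fold changes are on the log2(FPKM + 1) scale, which understates the change of genes at low FPKM, and p-values are those of limma, two-sided, adjusted by Benjamini-Hochberg over the 12125 rows past the filter. The values of the samples are given in the order 1a, 2a and 3a for C 8w, C096, C097 and C098 for C 8w + A 4w, and 2e and 3e for C 12w.

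Most collagen genes had their highest mean level in the tumors. The mean FPKM of 25 of the 36 genes, 14 of the 18 collagens among them, was highest in the tumor group. That of 19 of the 36 was lowest in the severe injury group. These shares were not counted over all rows. The log2 fold change of the tumor group against C 8w was positive for 27 of the 36 genes and 7575 of the 12125 rows. That of the severe injury group against the tumor group was negative for 26 of the 36 and 6068 of the 12125. Col5a2, Col6a3 and Col16a1 passed the filter through the 2 tumors alone, no liver reaching 0.5 FPKM, so they had to be highest there, and their tests against the tumors are not independent of the filter. Without these 3, 33 genes remain. Their counts of calls with all 8 samples, in the order that follows, are 7 higher and 1 lower, 3 and 6, and 2 and 11. In the tumor group against C 8w, 8 of the 36 rose and 1 fell (25% called, where 18.6% of all rows were called, 12.3% higher and 6.34% lower). In the severe injury group against C 8w, 3 rose and 6 fell (25% called, where 36.8% of all rows were called, 24.2% higher and 12.6% lower). In the severe injury group against the tumor group, 2 were higher and 14 lower (44.4% called, where 32.6% of all rows were called, 17.2% higher and 15.4% lower). Over the 36 genes, the median log2 fold change was 0.37 in the tumor group against C 8w, -0.13 in the severe injury group against C 8w and -0.39 in the severe injury group against the tumor group. The medians over all rows were 0.12, 0.12 and -0.00058. The groups did not overlap for 17 genes higher and 6 lower in the tumor group than in C 8w (63.9%, against 53.8% of all rows, 35% higher and 18.8% lower). Col5a2, Col6a3 and Col16a1, which passed the filter through the tumors alone, are among the 17. The severe injury and C 8w groups did not overlap for 6 genes higher and 12 lower after severe injury (50%, against 59.6% of all rows, 38.5% higher and 21.1% lower). The tumor and severe injury groups did not overlap for 5 genes higher and 18 lower after severe injury (63.9%, against 52% of all rows, 27.6% higher and 24.4% lower). Col5a2, Col6a3 and Col16a1 are among the 18. Without the 3e sample, the count higher in the tumor group than in C 8w was 5, and without the 2e sample it was 19, where 8.92% and 25.6% of all rows were called higher. Leaving out 1a, 2a or 3a gave 2, 3 or 4, where 4.54%, 6.1% and 5.14% of all rows were called higher. The number lower in the severe injury group than in C 8w was 3 without 1a, 3a or C098, where 7.79%, 8.66% and 9.14% of all rows were called lower, and 11 without 2e or 3e, where 16.8% were. The number lower in the severe injury group than in the tumor group was 9 without 3e, where 12.9% of all rows were called lower.

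**Figure D1:**
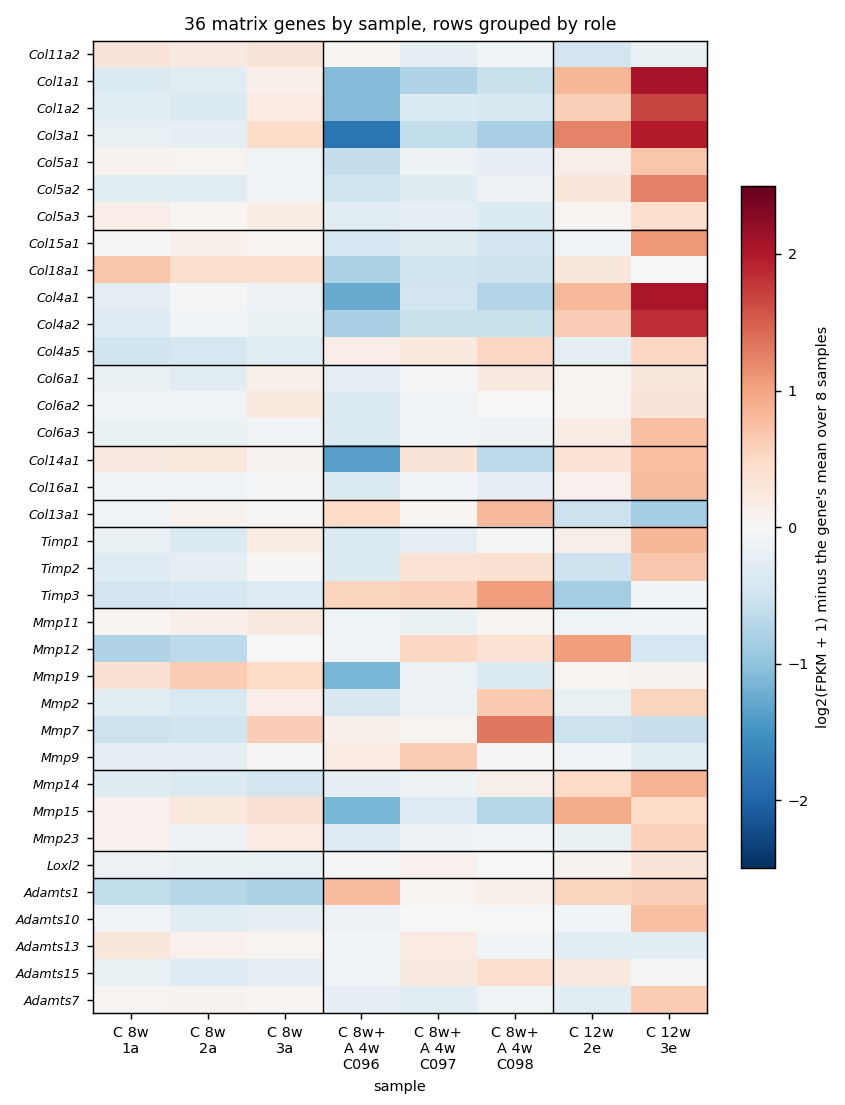
Colour shows log2(FPKM + 1) of each of the 36 genes (rows, grouped by role) in each of the 8 samples (columns), after subtracting the mean of the gene over the samples. The Col1a1, Col1a2, Col3a1, Col4a1 and Col4a2 rows are darkest red in the C 12w sample 3e and darkest blue in the C 8w + A 4w sample C096.

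The stretch of 120 bases upstream of the annotated start is shown for 3 genes that passed the test in the tumor group against C 8w: a fibrillar collagen, a membrane-bound protease and a secreted protease. The sequences are from RefSeq on GRCm38.p6, on the strand of the gene, written 5′ to 3′. Capitals mark matches to 4 short motifs: the CCAAT box, the TATAAA box, the GGGCGG box bound by Sp1-type factors, and TGANTCA (N is any base), the site of AP-1 factors. Both strands were searched, and a match on the other strand is printed as its complement. In Mmp14 the last CCAAT match and the GGGCGG beside it share letters.
Col3a1, chr1:45311418-45311537, plus strand: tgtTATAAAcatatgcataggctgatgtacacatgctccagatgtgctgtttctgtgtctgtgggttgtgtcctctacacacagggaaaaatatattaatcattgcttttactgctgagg
Mmp14, chr14:54431478-54431597, plus strand: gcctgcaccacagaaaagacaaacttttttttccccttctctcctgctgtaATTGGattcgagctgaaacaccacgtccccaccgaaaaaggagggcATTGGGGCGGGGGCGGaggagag
Adamts1, chr16:85803114-85803233, minus strand: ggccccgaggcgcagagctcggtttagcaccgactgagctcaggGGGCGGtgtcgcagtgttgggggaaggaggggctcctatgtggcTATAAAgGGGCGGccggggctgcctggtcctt
Col3a1 had a TATAAA and no GGGCGG in this window, Mmp14 had CCAAT and GGGCGG and no TATAAA, and Adamts1 had both TATAAA and GGGCGG. Over the 250 bases before the start, GGGCGG was found in 54.8% of the 31 windows of 26 of the 36 genes and in 32.7% of the 32851 windows of all genes, CCAAT in 38.7% and 33.8%, TATAAA in 16.1% and 12.4%, and TGANTCA in 9.68% and 6.75%. A match is a description of the letters and not of a bound factor. Adamts7, Adamts10, Adamts15, Col1a1, Col5a2, Col14a1, Loxl2, Mmp2, Mmp9 and Mmp19 had no entry.

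The fibrillar collagens form the cable-like fibres of scar tissue, and 7 of their 11 genes passed the filter. In the tumor group against C 8w, 4 of the 7 rose and 1 fell, with a median log2 fold change of 0.99. Col5a2, among the 4, passed the filter through the tumors alone, and this median was its own value. Type I collagen is the main fibril of scar, and its first chain gene Col1a1 was at 0.749, 0.849 and 1.46 FPKM in the C 8w samples, 0.0618, 0.337 and 0.528 FPKM in the severe injury samples and 2.97 and 8.29 FPKM in the tumors. Its partner chain gene Col1a2 was at 1.77, 1.62 and 2.89 FPKM in the C 8w samples, 0.597, 1.68 and 1.56 FPKM in the severe injury samples and 4.09 and 9.85 FPKM in the tumors. Col3a1, the type III chain that is laid down early in scar, was at 2.67, 2.56 and 4.73 FPKM in the C 8w samples, 0.182, 1.72 and 1.39 FPKM in the severe injury samples and 8.85 and 15.5 FPKM in the tumors. All 3 genes were higher in both tumors than in every C 8w liver, and 3e was higher than 2e in each. The mean FPKM of the tumor group was 5.53 times that of C 8w for Col1a1, 3.33 times for Col1a2 and 3.67 times for Col3a1. On the log2 scale the change was 1.61 (SE 0.34, adjusted p = 0.0158) for Col1a1, 1.29 (SE 0.35, adjusted p = 0.0378) for Col1a2 and 1.60 (SE 0.39, adjusted p = 0.0263) for Col3a1. In bulk tissue, fewer cells of a type and less RNA per cell cannot be told apart, here and below. Without 3e, the adjusted p was 0.169 for Col1a2 and 0.115 for Col3a1, while Col1a1 stayed past the threshold (0.034) with its log2 fold change at 0.99. The log2 fold changes of Col1a2 and Col3a1 without 3e were 0.74 and 1.22. Col1a1 also lost its call without 1a (adjusted p = 0.0616) or 2a (0.0517), Col3a1 without 1a (0.0882) or 2a (0.0816), and Col1a2 without 1a (0.115), 2a (0.105), 3a (0.0611) or C098 (0.060). Other settings also ended these calls: that of Col1a2 was lost with a pseudocount of 0.1 (0.0541), no filter (0.0834), quantile normalization (0.0504) or a fit of only the 2 groups (0.0708), and that of Col3a1 with a pseudocount of 0.1 (0.103) or no filter (0.0624).

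Type V collagen, which is built into type I fibrils and sets their width, was lower in level. Col5a1 was at 1.15, 1.13 and 0.905 FPKM in the C 8w samples, 0.334, 0.843 and 0.761 FPKM in the severe injury samples and 1.24 and 2.25 FPKM in the tumors. Col5a2 was at 0.329, 0.309 and 0.488 FPKM in the C 8w samples, 0.125, 0.288 and 0.445 FPKM in the severe injury samples and 0.969 and 2.79 FPKM in the tumors. Col5a2 rose in the tumor group against C 8w by a log2 fold change of 0.99 (SE 0.25, adjusted p = 0.0297), and both tumors lay above every liver, but it passed the filter through the tumors alone. Its adjusted p was 0.068 without 3e (log2 fold change 0.52), 0.0923 without 1a, 0.0853 without 2a and 0.0712 without 3a, and 0.0594 with no filter and 0.0717 in a fit of only the 2 groups. The difference of Col5a1 was 0.39 (SE 0.20, adjusted p = 0.188), which was 0.66 and passed without 2e (0.0316) and was 0.12 without 3e, and that of Col5a3, the third chain, was 0.11 (SE 0.13, adjusted p = 0.586), and -0.071 without 3e. The fall was in Col11a2, a type XI chain best known from cartilage, at 1.03, 0.917 and 1.05 FPKM in the C 8w samples, 0.698, 0.400 and 0.550 FPKM in the severe injury samples and 0.180 and 0.449 FPKM in the tumors. The tumor values lay below all C 8w values, with a log2 fold change of -0.61 (SE 0.13, adjusted p = 0.0187), and leaving out 1a, 2a or 3a gave adjusted p-values of 0.0697, 0.0513 and 0.0687.

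After severe injury, all 7 fibrillar genes had a negative log2 fold change against C 8w, and 3 of them passed the test. These were Col3a1 at -1.09 (SE 0.35, adjusted p = 0.0383), Col5a3 at -0.42 (SE 0.12, adjusted p = 0.0242) and Col11a2 at -0.37 (SE 0.12, adjusted p = 0.0417). All severe injury values lay below all C 8w values in these 3 genes. Col5a3 was at 0.518, 0.382 and 0.522 FPKM in the C 8w samples, 0.102, 0.143 and 0.0605 FPKM in the severe injury samples and 0.402 and 0.795 FPKM in the tumors. The Col3a1 call was lost without most single samples, and the adjusted p was 0.0949 without C096 (log2 fold change -0.73), 0.0567 without C098, and 0.0782, 0.0642 and 0.126 without 1a, 2a and 3a. Col5a3 lost its call without 1a (0.0908), 3a (0.0794), C096 (0.0579) or C098 (0.0733), and Col11a2 without 1a (0.125), 2a (0.0857), 3a (0.118), C097 (0.109) or C098 (0.094). A pseudocount of 0.1 ended the calls of Col3a1 (0.0536) and Col11a2 (0.0774), no filter ended that of Col3a1 (0.0829), and quantile normalization gave one to Col5a1 (0.0365). Col1a1 was lower in every severe injury sample than in every C 8w sample, but its difference of -0.62 (SE 0.30, adjusted p = 0.137) did not pass the test, and it passed without 2e (0.0199) or 3e (0.0196) and in a fit of only the 2 groups (0.0194). The difference of Col1a2 was -0.46 (SE 0.31, adjusted p = 0.285), with overlapping groups.

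Against the tumors, 6 of the 7 fibrillar genes were lower in the severe injury group, with a median log2 fold change of -1.09. Col5a2, among the 6, passed the filter through the tumors alone, and this median was its own value. Col3a1 had the largest difference of the 36 genes, at -2.69 (SE 0.39, adjusted p = 0.00138), and Col1a1 (-2.23, SE 0.34, adjusted p = 0.00176) and Col1a2 (-1.74, SE 0.35, adjusted p = 0.00658) followed among the fibrillar chains. The mean FPKM of the tumor group was 12.2 ± 4.73 (SD, n = 2) for Col3a1, against 1.10 ± 0.808 (SD, n = 3) in the severe injury group. Col5a2 (-1.09, SE 0.25, adjusted p = 0.0114), Col5a1 (-0.73, SE 0.20, adjusted p = 0.0230) and Col5a3 (-0.53, SE 0.13, adjusted p = 0.0167) were lower as well. Col1a1, Col1a2, Col3a1 and Col5a2 kept their calls whichever sample was left out, with Col5a2 at -0.62 without 3e. Without 3e, Col5a1 was at -0.46 and Col5a3 at -0.35. Col5a1 lost its call without 3e (0.109) or C096 (0.0586), and Col5a3 without 3e (0.0574) or C098 (0.0524), and a fit of only the 2 groups ended both (0.0758 and 0.0632). Summed over the 11 fibrillar genes, FPKM was 8.58, 8.18 and 12.4 in C 8w, 2.25, 5.65 and 5.5 in the severe injury group, and 18.9 and 40.5 in the tumor group, so the 3 groups did not overlap.

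**Figure D2:**
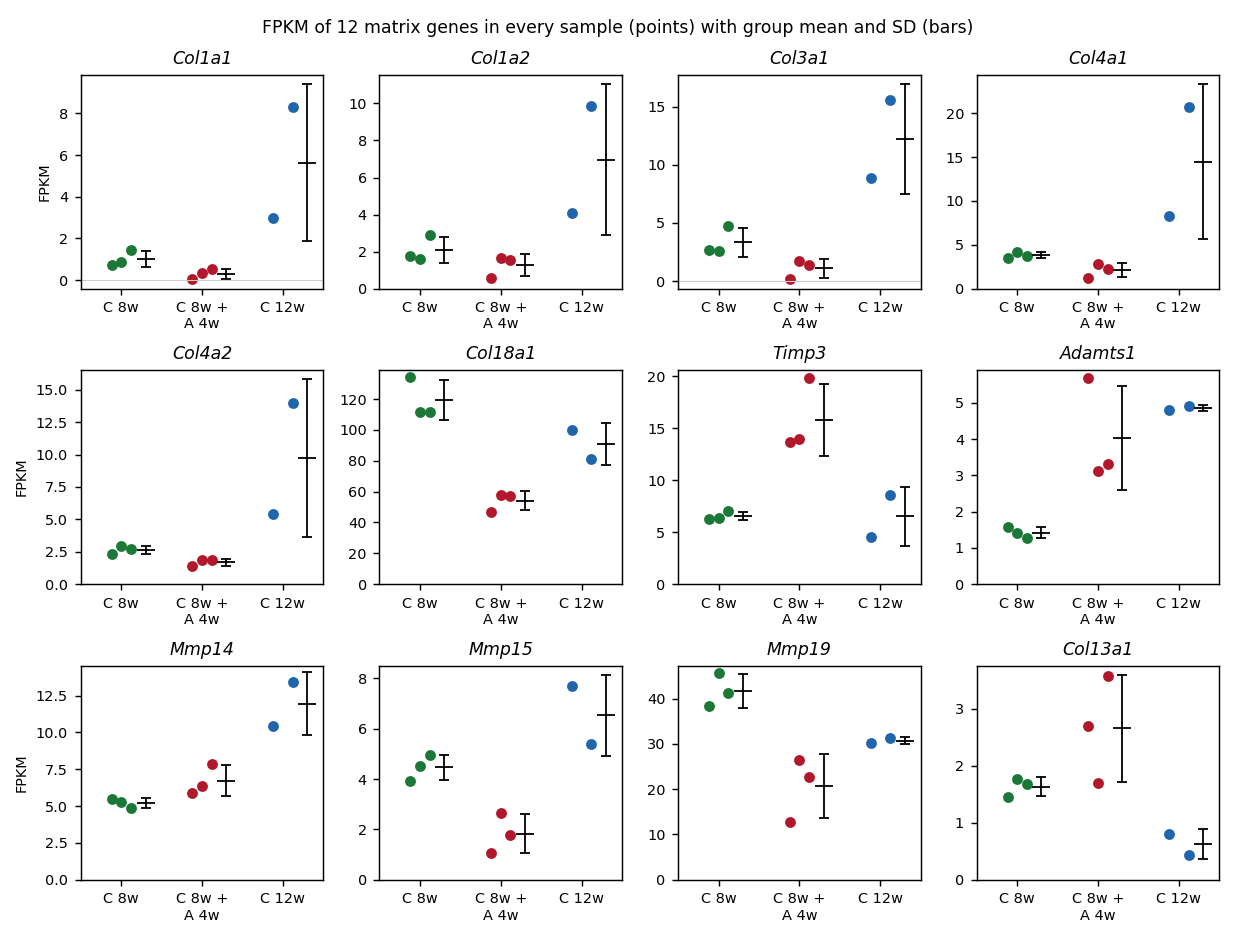
FPKM on a linear axis from 0 for 12 genes, with 1 point per sample and a bar for the mean and SD of each group (n = 3, 3 and 2). Col1a1, Col3a1, Col4a1 and Col4a2 are highest in the 2 tumors with a wide gap between them, Timp3 is highest in C 8w + A 4w, and Col18a1 is lowest there.

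The basement membrane collagens form the sheets under epithelial and endothelial cells, and 5 of their 8 genes passed the filter. Type IV collagen is their main network, and its chains Col4a1 and Col4a2 lie next to each other in the genome and are joined in the same molecule. Col4a1 was at 3.54, 4.18 and 3.76 FPKM in the C 8w samples, 1.22, 2.82 and 2.20 FPKM in the severe injury samples and 8.26 and 20.7 FPKM in the tumors. Col4a2 was at 2.33, 2.96 and 2.70 FPKM in the C 8w samples, 1.38, 1.83 and 1.85 FPKM in the severe injury samples and 5.41 and 14.0 FPKM in the tumors. Both chains were highest in the tumors and lowest after severe injury, with no overlap between the 3 groups. In the tumor group against C 8w, the log2 fold change was 1.56 (SE 0.34, adjusted p = 0.0191) for Col4a1 and 1.42 (SE 0.30, adjusted p = 0.0171) for Col4a2. Without 3e the log2 fold changes were 0.94 and 0.81, and the adjusted p of Col4a1 was 0.0531, and it was 0.0681, 0.0508 and 0.0624 without 1a, 2a and 3a, while Col4a2 lost its call without 1a (0.0646) or 3a (0.0557) and in a fit of only the 2 groups (0.0566). In the severe injury group against the tumor group, the differences of -2.24 (SE 0.34, adjusted p = 0.00197) and -1.87 (SE 0.30, adjusted p = 0.00249) kept their calls whichever sample was left out. In the severe injury group against C 8w, neither passed the test, at -0.68 (SE 0.31, adjusted p = 0.117) and -0.45 (SE 0.27, adjusted p = 0.229), although the groups did not overlap. They passed it without 2e or 3e, with an adjusted p of 0.0196 for Col4a1 and 0.0134 for Col4a2 in both cases, and in a fit of only the 2 groups (0.0195 and 0.0133).

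Col4a5, a chain of another type IV network, moved the other way after severe injury. It was at 0.249, 0.310 and 0.457 FPKM in the C 8w samples, 1.00, 1.10 and 1.54 FPKM in the severe injury samples and 0.521 and 1.53 FPKM in the tumors. Each severe injury value lay above all C 8w values, with a log2 fold change of 0.72 (SE 0.19, adjusted p = 0.0193), and leaving out 1a (0.0755), 2a (0.0611) or C098 (0.0666) took it over the threshold. The difference from the tumor group was 0.17 (SE 0.21, adjusted p = 0.583), with 2e well below and 3e level with the severe injury samples. It was 0.53 and passed without 3e (0.043), and it was -0.20 without 2e. The difference of the tumor group from C 8w was 0.56 (SE 0.21, adjusted p = 0.0995), which passed without 2e (0.00507).

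Col18a1, whose C-terminal piece is endostatin, was by far the most abundant of the 36 genes. It was at 134, 112 and 112 FPKM in the C 8w samples, 47.0, 58.1 and 56.9 FPKM in the severe injury samples and 100.3 and 81.4 FPKM in the tumors. The 3 groups did not overlap, and the severe injury group was at 0.452 of the C 8w mean. The fall after severe injury was -1.13 (SE 0.14, adjusted p = 0.000605), the lowest adjusted p of the 36 genes in this comparison, and it kept its call whichever sample was left out. The severe injury group was also lower than the tumor group, at -0.74 (SE 0.16, adjusted p = 0.00920), and the difference of the tumor group from C 8w was -0.39 (SE 0.16, adjusted p = 0.116). Without 2e the latter was -0.54 with an adjusted p of 0.0497. Col15a1, the other endostatin-type collagen, was at 0.683, 0.815 and 0.724 FPKM in the C 8w samples, 0.218, 0.346 and 0.179 FPKM in the severe injury samples and 0.557 and 2.50 FPKM in the tumors. Its highest value was in 3e, and 2e lay below all C 8w values. Its difference of the severe injury group from the tumor group, -0.91 (SE 0.28, adjusted p = 0.0400), lost the call without any 1 of 7 samples, all but 2e, with adjusted p-values from 0.0629 without C097 to 0.101 without C098, and the difference was -0.32 without 3e and -1.49 without 2e. It also lost the call with no filter (0.0758) or in a fit of only the 2 groups (0.108). Its difference of the severe injury group from C 8w, -0.48 (SE 0.25, adjusted p = 0.169), passed in a fit of only the 2 groups (0.00322) or without 2e (0.0035) or 3e (0.00325). Its difference of the tumor group from C 8w was 0.42 (SE 0.28, adjusted p = 0.308), -0.16 without 3e and 1.01 without 2e (adjusted p = 0.00118).

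Col18a1 also weighed most in the sum over all 44 collagen genes. It made up 78 to 84% of the summed collagen FPKM in C 8w, 72.2 to 79.3% in the severe injury group, 69.2% in 2e and 46.1% in 3e. With Col18a1, the sum was 139 to 160.1 FPKM in C 8w, 59.3 to 80.6 in the severe injury group and 145 and 177 in the tumor group. Without it, the sum was 25.7, 27 and 31.5 in C 8w, 12.3, 22.4 and 21.3 in the severe injury group, and 44.5 and 95.3 in the tumor group. The groups did not overlap in the sum without Col18a1.

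**Figure D3:**
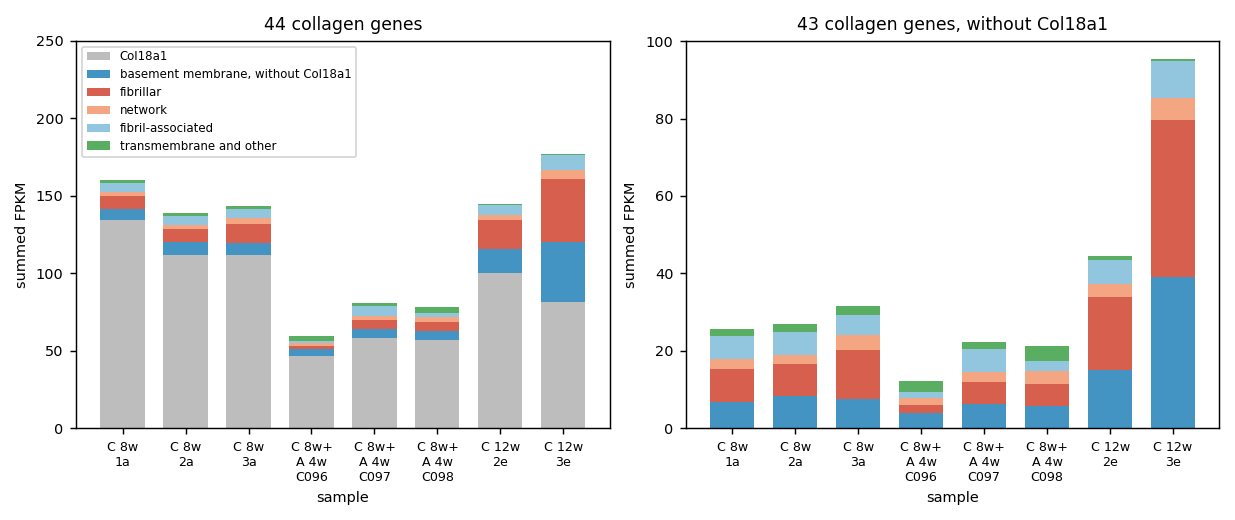
Bars show summed FPKM of the 44 collagen genes in each sample (left) and of the 43 genes without Col18a1 (right), stacked by collagen role, on axes from 0. Col18a1 takes most of every bar on the left except that of 3e, and on the right the fibrillar and basement membrane parts of 3e (40.5 FPKM for the fibrillar part) stand above those of all other samples.

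Among the remaining collagens, type VI collagen forms beaded filaments, and its 3 chains Col6a1, Col6a2 and Col6a3 were the only ones of 11 network collagens to pass the filter. Col6a1 was at 1.04, 0.908 and 1.58 FPKM in the C 8w samples, 1.00, 1.27 and 1.74 FPKM in the severe injury samples and 1.45 and 1.85 FPKM in the tumors. Col6a2 was at 0.519, 0.505 and 0.908 FPKM in the C 8w samples, 0.266, 0.510 and 0.581 FPKM in the severe injury samples and 0.646 and 0.993 FPKM in the tumors. Col6a3 was at 0.336, 0.335 and 0.428 FPKM in the C 8w samples, 0.164, 0.422 and 0.369 FPKM in the severe injury samples and 0.688 and 1.53 FPKM in the tumors. For Col6a1 and Col6a2 no comparison passed the test, with log2 fold changes of 0.29 (SE 0.18, adjusted p = 0.276) and 0.15 (SE 0.16, adjusted p = 0.538) in the tumor group against C 8w. Col6a3 lay just outside the threshold there, at 0.60 (SE 0.18, adjusted p = 0.0501), and the severe injury group differed from the tumor group by -0.65 (SE 0.18, adjusted p = 0.0234), for a gene that passed the filter through the tumors alone. The first passed without 2e (0.0033) and under median-ratio scaling (0.0491), and the second did not without 3e (-0.36, adjusted p = 0.0899), C096 (0.0662) or C098 (0.0513) or in a fit of only the 2 groups (0.0805). Of the fibril-associated collagens, which coat the fibrils, Col16a1, which also passed the filter through the tumors alone, was lower in the severe injury group than in the tumor group, at -0.67 (SE 0.19, adjusted p = 0.0314), and Col14a1, at 0.844 to 7.06 FPKM, passed in no comparison. Col16a1 was at -1.02 without 2e and -0.32 without 3e, and it lost that call without 3e (0.112), C096 (0.0844), C098 (0.0792), 1a (0.0547), 2a (0.0551) or 3a (0.0534) and in a fit of only the 2 groups (0.0965), and Col14a1 passed without C097, in which it was 4.98 FPKM, against both C 8w (0.00787) and the tumors (0.00436).

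Col13a1, a transmembrane collagen of cell contacts, was lowest in the tumors. It was at 1.45, 1.76 and 1.68 FPKM in the C 8w samples, 2.70, 1.70 and 3.57 FPKM in the severe injury samples and 0.806 and 0.433 FPKM in the tumors. The tumors lay below both other groups, and the severe injury group overlapped with C 8w because C097 was low. The difference of the severe injury group from the tumor group was 1.15 (SE 0.21, adjusted p = 0.00476) and kept its call whichever sample was left out. Those from C 8w were 0.44 (SE 0.19, adjusted p = 0.103) for the severe injury group and -0.71 (SE 0.21, adjusted p = 0.0534) for the tumor group. The first passed without C097 (0.0181), and the second without 2e (0.0324), C097 (0.0242) or C098 (0.0429). The second also passed with a pseudocount of 0.1 (0.0291), median-ratio scaling (0.0497), quantile normalization (0.0423) or a fit of only the 2 groups (0.0347).

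**Figure D4:**
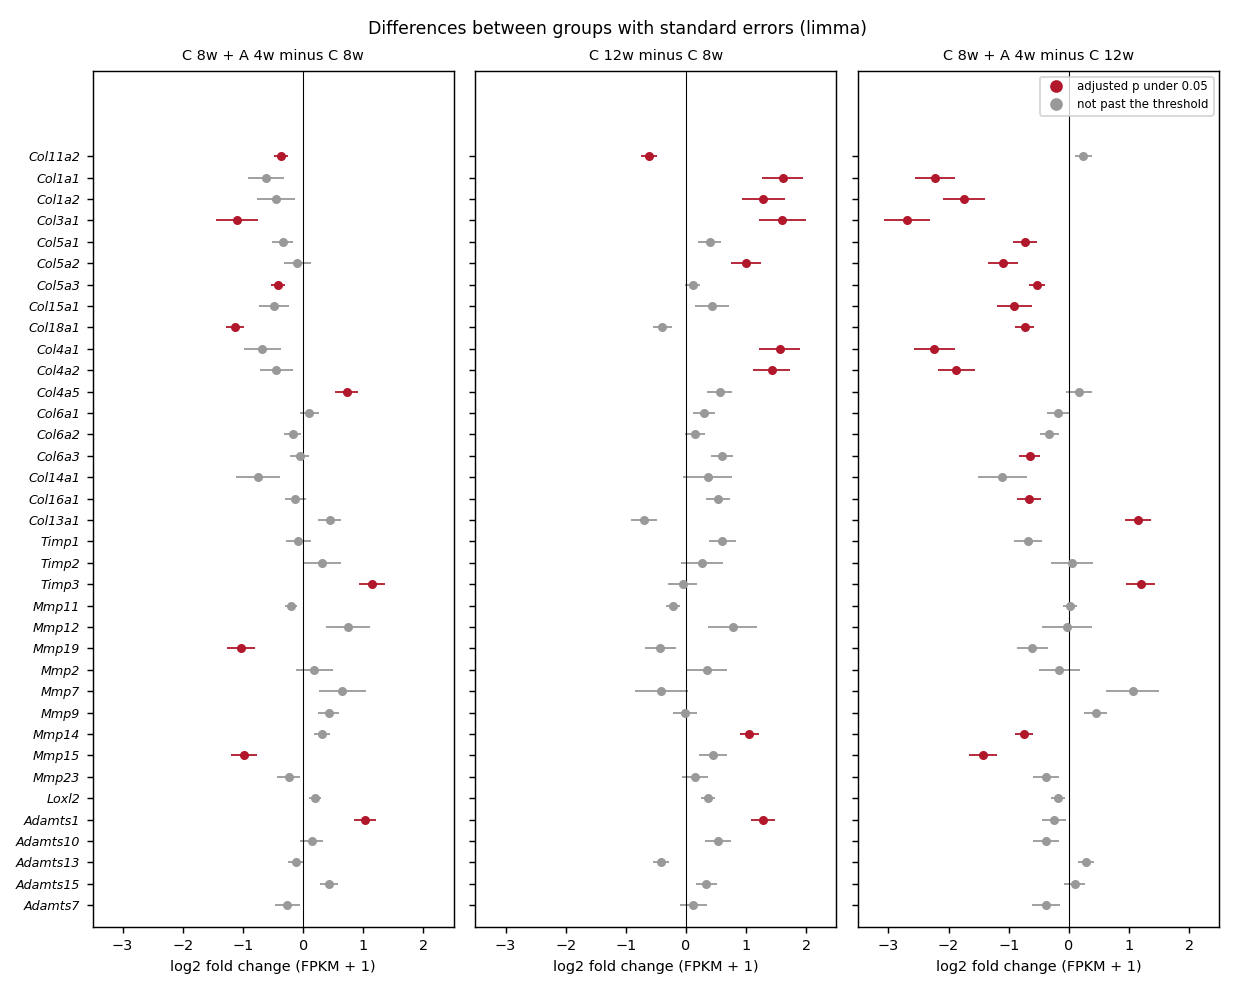
Log2 fold changes of the 36 genes on the log2(FPKM + 1) scale in the 3 comparisons, with horizontal bars for the standard error and red points for an adjusted p under 0.05. In C 8w + A 4w minus C 12w, 14 red points lie left of 0 and 2 right of it, and in C 12w minus C 8w, 8 lie right and 1 left.

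Among the inhibitors, Timp3 rose after severe injury. Timp3 is the TIMP that binds to the matrix and also inhibits several ADAMTS proteases. It was at 6.24, 6.40 and 7.01 FPKM in the C 8w samples, 13.7, 13.9 and 19.8 FPKM in the severe injury samples and 4.50 and 8.55 FPKM in the tumors. Each severe injury value was above every value of the other 2 groups, at 2.41 times the C 8w mean and 2.42 times the tumor mean. The log2 fold change was 1.14 (SE 0.22, adjusted p = 0.00450) against C 8w and 1.19 (SE 0.24, adjusted p = 0.00668) against the tumor group, and both calls held whichever sample was left out, with the second at 0.80 without 2e. Of the exon bases of Timp3, 21.3% overlap Syn3 on the opposite strand, and the library kit as named does not mark strand, but Syn3 was at 0.054 to 0.25 FPKM in the 8 samples. Timp1, an inhibitor known from liver scarring, was at 0.162, 0.0392 and 0.514 FPKM in the C 8w samples, 0.0434, 0.132 and 0.307 FPKM in the severe injury samples and 0.471 and 1.35 FPKM in the tumors. Timp2, which also takes part in activating Mmp2, was at 2.41, 2.60 and 3.36 FPKM in the C 8w samples, 2.38, 4.42 and 4.58 FPKM in the severe injury samples and 1.99 and 5.84 FPKM in the tumors. Both were highest in 3e. Neither passed the test in any comparison, and the nearest was Timp1 in the severe injury group against the tumor group, at -0.69 (SE 0.23, adjusted p = 0.0509). Without 2e, Timp1 passed in that comparison (0.00752) and in the tumor group against C 8w (0.0134), as did Timp2 in the latter (0.0494). Median-ratio scaling (0.0495) and quantile normalization (0.0450) also gave Timp1 a call against the tumor group.

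Of the membrane-bound MMPs, Mmp14 rose in the tumors and Mmp15 fell after severe injury. Mmp14, the membrane-bound MMP that activates Mmp2 and cuts fibrillar collagen, was at 5.50, 5.26 and 4.85 FPKM in the C 8w samples, 5.91, 6.39 and 7.88 FPKM in the severe injury samples and 10.4 and 13.4 FPKM in the tumors. Both tumors lay above all livers, and the rise from C 8w to the tumor group was 1.05 (SE 0.15, adjusted p = 0.00386), 2.30 times the mean. This call held whichever sample was left out. The severe injury group was lower than the tumor group, at -0.74 (SE 0.15, adjusted p = 0.00714), and its difference from C 8w was 0.31 (SE 0.14, adjusted p = 0.108). Mmp15, another membrane-bound MMP, was at 3.94, 4.51 and 4.94 FPKM in the C 8w samples, 1.08, 2.63 and 1.77 FPKM in the severe injury samples and 7.68 and 5.39 FPKM in the tumors. It fell after severe injury, at -0.98 (SE 0.21, adjusted p = 0.00785) against C 8w and -1.43 (SE 0.24, adjusted p = 0.00262) against the tumor group, and the 3 groups did not overlap. The difference of the tumors from C 8w was 0.45 (SE 0.24, adjusted p = 0.201). All calls of Mmp15 held whichever sample was left out. Mmp23, the third membrane-bound MMP past the filter, was at 0.121 to 1.09 FPKM and passed in no comparison, but passed without 2e in both comparisons with the tumors (0.0394 against C 8w and 0.00784 against severe injury).

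Mmp19 was the most abundant MMP and made up 53.6 to 79.2% of the summed MMP FPKM of each sample. It was at 38.3, 45.7 and 41.2 FPKM in the C 8w samples, 12.7, 26.4 and 22.8 FPKM in the severe injury samples and 30.1 and 31.2 FPKM in the tumors. The fall from C 8w to the severe injury group was -1.04 (SE 0.23, adjusted p = 0.00968) and held whichever sample was left out, and the 3 groups did not overlap. The tumors lay between them, with a difference of -0.43 (SE 0.26, adjusted p = 0.267) from C 8w, and the severe injury group was -0.61 (SE 0.26, adjusted p = 0.108) relative to the tumor group, which passed without C097 (0.0425). Tmem198b and Gm47093 cover 28.3% of the exon bases of Mmp19 on the opposite strand, and Tmem198b was at 0.715 to 1.33 FPKM, while Gm47093 has no value here, so the values of Mmp19 are uncertain to an extent that was not measured.

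The values of Mmp12, Mmp9, Mmp2 and Mmp7 were low and uneven within groups. Mmp12, the macrophage elastase, was at 0.0962, 0.183 and 0.835 FPKM in the C 8w samples, 0.763, 1.65 and 1.38 FPKM in the severe injury samples and 2.82 and 0.361 FPKM in the tumors. It was highest in 2e, and the value in 3e lay within the range of the C 8w livers. Mmp9, a gelatinase of neutrophils and macrophages, was at 0.279, 0.279 and 0.548 FPKM in the C 8w samples, 0.749, 1.35 and 0.491 FPKM in the severe injury samples and 0.448 and 0.251 FPKM in the tumors, and Mmp2, the gelatinase of fibroblasts, was at 0.538, 0.409 and 1.07 FPKM in the C 8w samples, 0.389, 0.659 and 1.88 FPKM in the severe injury samples and 0.615 and 1.72 FPKM in the tumors. Mmp7, the matrilysin of injured epithelium, was at 0.0264, 0.0510 and 1.28 FPKM in the C 8w samples, 0.633, 0.568 and 2.70 FPKM in the severe injury samples and 0.0265 and 0 FPKM in the tumors. It was at 0.567 FPKM or more in 3a and in the severe injury samples and close to 0 in the other 4, so 1 C 8w liver stood apart from the other 2. None of these 4 passed the test in a comparison, and the standard errors of Mmp7 and Mmp12 were 0.37 to 0.44. Mmp12 passed in the tumor group against C 8w without 3e (0.0188) and in the severe injury group against C 8w without 2e or 3e (0.0269 in both) or in a fit of only the 2 groups (0.0267), and Mmp9 passed in the severe injury group against C 8w without C098 (0.0438). Mmp11, a secreted MMP of stroma, was at 0.365 to 0.797 FPKM and passed in none, except with quantile normalization in the severe injury group against C 8w (0.0418). Mmp7 passed in the severe injury group against the tumor group with a pseudocount of 0.1 (0.0409). Mmp13, a main collagenase of rodents, was not past the filter, with 0.68 FPKM in 2e and at most 0.215 FPKM elsewhere.

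Of the lysyl oxidases only Loxl2 passed the filter. It was at 0.385, 0.358 and 0.334 FPKM in the C 8w samples, 0.488, 0.648 and 0.527 FPKM in the severe injury samples and 0.623 and 0.903 FPKM in the tumors. All values of the tumor and severe injury groups lay above all C 8w values, with differences of 0.37 (SE 0.11, adjusted p = 0.0562) and 0.19 (SE 0.10, adjusted p = 0.176) that did not pass the test, and the first passed without 2e (0.0152) or with no filter (0.0352). Of its windows of 50 bases, 45% occur elsewhere among the annotated transcripts, so its level is uncertain. Lox, the founding member, was under 0.3 FPKM in all samples but 3e, where it was 0.745 FPKM, and Loxl1 was at 0.0583 to 0.468 FPKM except for 1.54 FPKM in 3e.

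Among the 5 ADAMTS genes past the filter, only Adamts1 passed the test. Adamts1 encodes a secreted protease that cuts proteoglycans such as versican. It was at 1.57, 1.41 and 1.28 FPKM in the C 8w samples, 5.69, 3.11 and 3.32 FPKM in the severe injury samples and 4.80 and 4.92 FPKM in the tumors. All values of both other groups lay above those of C 8w, 3.42 times the mean in the tumor group and 2.84 times in the severe injury group. The log2 fold change was 1.28 (SE 0.20, adjusted p = 0.00550) in the tumor group and 1.02 (SE 0.18, adjusted p = 0.00333) in the severe injury group, and both calls held whichever sample was left out. The severe injury group and the tumor group overlapped, with a difference of -0.25 (SE 0.20, adjusted p = 0.373), which was -0.48 without C096 (adjusted p = 0.0277). Adamts13, which cuts von Willebrand factor, was lower in the tumors without passing the test, at -0.41 (SE 0.13, adjusted p = 0.0638), and it passed under median-ratio scaling (0.0297), quantile normalization (0.0173) and without C097 (0.0481). Adamts7, Adamts10 and Adamts15 passed in no comparison of all 8 samples. Without 2e, Adamts7 (0.0096) and Adamts10 (0.0022) passed in the tumor group against C 8w, and both were lower after severe injury than in the tumors (0.00144 and 0.0029). After severe injury, against C 8w, Adamts7 passed as lower without 2e (0.0371) or 3e (0.0361) or in a fit of only the 2 groups (0.0365). There, Adamts15 passed as higher without 2e (0.0388), 3e (0.0384) or C096 (0.0179), in a fit of only the 2 groups (0.0383) and with a pseudocount of 0.1 (0.0423). Adamts2, which removes the N-terminal propeptide of fibrillar procollagens, stayed under the filter, at 0.207 to 0.456 FPKM except for 0.993 FPKM in 3e.

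The other 59 matching genes did not pass the filter. Of these, 27 had their highest value under 0.1 FPKM, among them 5 that were listed at 0 in every sample, and 10 reached 0.5 FPKM in a single sample, which was 3e for 6 of them. Just inside the filter, by the second highest value, were Timp1 (0.514 FPKM), Col5a3 (0.522 FPKM) and Col16a1 (0.537 FPKM), and just outside were Mmp27 (0.469 FPKM), Loxl1 (0.468 FPKM) and Adamts2 (0.456 FPKM).

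The 2 tumors differed from each other. Of the 36 genes, 28 were higher in 3e than in 2e (77.8%, against 61.2% of all rows), and 16 were at least 2 times as high (44.4%, against 9.65% of all rows). Those at least 2 times as high in 2e were Mmp12 and, at 0.0265 against 0 FPKM, Mmp7. Without 2e, which leaves 3e as the only tumor, the log2 fold change against C 8w was 1.01 for Col15a1 and 0.94 for Timp1. It was 0.88 for Col16a1 and 0.89 for Col6a3, which passed the filter through the tumors alone. It was -0.87 for Col13a1 and -0.54 for Col18a1. Among the collagens, 16 of 18 were higher in 3e, and 10 were at least 2 times as high. The 3e sample was also set apart by bile duct markers, whose summed FPKM over 9 genes was 385 there and 15 to 43 in the other 7 samples, led by Spp1 at 311 FPKM against 8.26 to 23.6. The sums of portal fibroblast markers were 13.5 in 2e and 16.6 in 3e, and those of stellate cell and myofibroblast markers were 44.8 and 58.4. Their part in the difference was not tested.

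**Figure D5:**
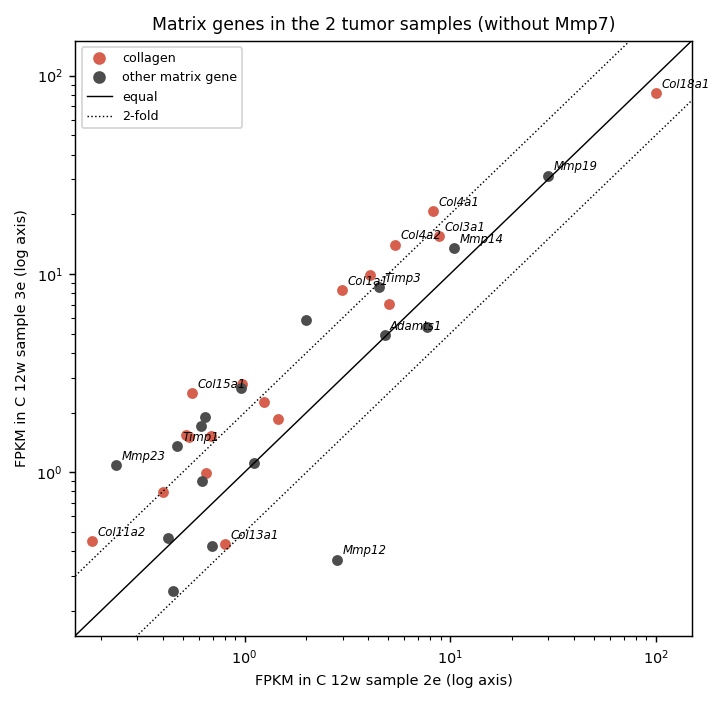
FPKM of each gene past the filter in the C 12w samples 2e (horizontal) and 3e (vertical), both on log axes, with lines for equal values and for 2-fold differences; Mmp7, at 0 in 3e, is left out. Of the 36 genes, 28 are higher in 3e, and Mmp12 lies far below the lines.

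Within the severe injury group, C096 had the lowest value of 27 of the 36 genes (75%, against 39.3% of all rows) and of 14 of the 18 collagens. Its Col3a1 value of 0.182 FPKM compared with 1.72 and 1.39 FPKM in C097 and C098, and its Col1a1 value of 0.0618 FPKM with 0.337 and 0.528 FPKM. The summed endothelial markers were also lowest in C096, at 28.4 against 47.1 and 45.9 FPKM, and so were the stellate cell and myofibroblast markers, at 42.9 against 84.4 and 77.02 FPKM. Their part in the low collagen values was not tested.

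Markers of the cells that make collagen were read beside these genes. Of 14 stellate cell and myofibroblast markers, 0 passed limma's test in the tumor group against C 8w (4 at an unadjusted p under 0.05), where 18.6% of all rows did. Without 2e, Pdgfrb (0.0369) and Tagln (0.0475) passed there as higher, and without C096 Colec11 passed as lower (0.013). The summed FPKM of these 14 was 53.7 to 58.6 in C 8w, 42.9 to 84.4 in the severe injury group, and 44.8 and 58.4 in the tumor group. Pdgfra and Cygb were higher in the severe injury group than in C 8w (14.3%, against 36.8% of all rows), and 4 were called without C096 (28.6%, against 28.2%). Lrat, Pdgfra, Hand2 and Cygb were higher in the severe injury group than in the tumor group (28.6%, against 32.6%), and Pdgfrb (0.0313) and Ngfr (0.029) passed there as lower without C097, as did Tagln without 2e (0.0458). Acta2, the actin of myofibroblasts, was at 0.632 to 4.57 FPKM in the livers and at 1.79 and 6.41 FPKM in the tumors, and its difference of 0.95 (SE 0.57, adjusted p = 0.258) in the tumor group against C 8w did not pass. Of 7 portal fibroblast markers tested, Entpd2 was higher in the tumor group than in C 8w and Eln was lower in the severe injury group than in the tumor group (14.3% each, against 18.6% and 32.6% of all rows). Of 10 endothelial markers, 4 were lower in the tumor group than in C 8w (Stab2, Clec4g, Kdr and Ptprb; 40%, against 18.6% of all rows called and 6.34% lower). After severe injury, 3 were lower (Stab2, Clec4g and Kdr) and 1 higher (Lyve1) than in C 8w (40%, against 36.8% called and 12.6% lower), the call of Lyve1 being lost without 1a (0.0747), 2a (0.052), C097 (0.0529) or C098 (0.0661). Of 12 macrophage markers, Cd9 was higher in both other groups than in C 8w. Cd163 was lower in the tumor group than in the other 2 groups. In the severe injury group against C 8w, 8.33% were called, against 36.8% of all rows. These shares were 16.7% and 18.6% in the tumor group against C 8w. They were 8.33% and 32.6% in the severe injury group against the tumors. The summed FPKM of the 12 was 141 to 166 in C 8w, 232 to 465 in the severe injury group, and 256 and 240.4 in 2e and 3e, so C 8w did not overlap with the other groups. In the severe injury group against C 8w, Gpnmb passed as higher without 2e or 3e (0.00173 and 0.00174) and Marco without C098 (0.0149), and Adgre1 (0.00394) and Csf1r (0.0108) as lower without C097.

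In the tumor group against C 8w, Stab2 lost its call without 3e (0.0512), Clec4g, Kdr and Ptprb without 3e or any C 8w sample (0.0502 to 0.0948), and Cd163 without 3e, C096 or any C 8w sample (0.0537 to 0.17). Against the tumors, Cygb lost its call without 2e (0.0763), C097 (0.0567) or C098 (0.0663), Hand2 without 2e (0.0654) or C096 (0.0557), and Eln without 2e, 3e, 2a, C096 or C097 (0.0525 to 0.115). Among hepatocyte markers, Alb was listed at 0 in 5 samples and is not read here. Of 13 others, 5 were lower (Fgg, Cps1, Cyp2e1, Hpd and Serpina1c) and 1 higher (Apoa1) in the severe injury group than in C 8w. Over all rows, 36.8% were called there, 24.2% higher and 12.6% lower. Cyp2e1 and Hpd kept their calls whichever sample was left out, while Cps1 lost its call without any C 8w sample, C096 or C097 (0.0516 to 0.0852), Fgg without any C 8w sample, C096 or C098 (0.0539 to 0.107), Apoa1 without 2a, C096 or C098 (0.0511 to 0.0808) and Serpina1c without C096 (0.0548). In the tumor group against C 8w, 2 were higher (Apob and Serpina1c) and 2 lower (Cyp2e1 and Hpd), where 18.6% of all rows were called. Apob, Serpina1c and Hpd lost these calls without 3a. In the severe injury group against the tumors, 1 was higher and 5 lower, where 32.6% of all rows were called. The summed FPKM of the 13 hepatocyte markers was 15918 to 20628 in C 8w and 13403 to 16654 in the severe injury group. It was 26644 and 14239 in 2e and 3e. Of 6 bile duct markers tested, Epcam was higher in the severe injury group than in C 8w (16.7%, against 36.8% of all rows). Without 2e or 3e, the log2 fold changes of Sox9, Bicc1 and Spp1 there were 0.91, 1.17 and 1.05. The summed FPKM of all 9 bile duct markers was 15 to 20.6 in C 8w and 34.7 to 43 in the severe injury group, with no overlap. Epcam, Sox9 and Spp1 were higher in the tumor group than in C 8w (50%, against 18.6% of all rows), and Epcam lost its call without any 1 of 7 samples, all but 2e (0.0568 to 0.208), and Sox9 without 1a (0.0651) or 3a (0.054). The part of these cell markers in the matrix results was not tested.

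Of 17 genes tested that process collagen during its secretion, 0 passed limma's test in the tumor group against C 8w (2 at an unadjusted p under 0.05). Their median log2 fold change was 0.13. Over all rows, 18.6% were called there, and the median was 0.12. In the severe injury group against C 8w, P4ha2, a prolyl hydroxylase subunit, and Crtap, a part of the prolyl 3-hydroxylase complex, rose, and Plod1, a lysyl hydroxylase, and Pcolce and Bmp1, which act in removing the C-terminal propeptide, fell (29.4%, against 36.8% of all rows). Against the tumors, P4ha2 and Crtap were higher and Plod1, Pcolce, Bmp1 and Serpinh1 were lower (35.3%, against 32.6% of all rows), and Serpinh1, the collagen chaperone HSP47, differed by -1.31 (SE 0.35, adjusted p = 0.0223). Serpinh1 was at 0.762, 2.98 and 1.44 FPKM in the severe injury group against 2.85, 3.31 and 4.73 FPKM in C 8w and 3.97 and 7.21 FPKM in the tumor group. Its call was lost without 3e (0.116), C096 (0.0564) or C098 (0.0634), that of P4ha2 against C 8w without 1a (0.0581), and that of Plod1 against the tumors without any 1 of 6 samples, all but 2e and C097 (0.0513 to 0.089). Without 2e, 5 of the 17 passed in the tumor group against C 8w (29.4%, against 35.6% of all rows), with Pcolce, Fkbp10, Plod3 and P3h2 higher and Sec23a lower, and without 3e Sec23a alone passed, as higher (0.0392). Against the tumors, 3 were higher and 7 lower without 2e (58.8%, against 41.5% of all rows), and 2 higher and 2 lower without 3e or C098 (23.5%, against 29.8% and 24.5%).

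Of 34 other matrix genes tested, 5 rose in the tumor group against C 8w (Fn1, Lamc1, Nid1, Agrn and Spp1) and 2 fell (Dcn and Ecm1), 20.6% of the list where 18.6% of all rows were called, with a median log2 fold change of 0.28. Without 2e, 10 rose, Lama5, Sparc, Nid2, Thbs1 and Lamb2 in addition (35.3% called, against 35.6% of all rows), and without 1a, 2a or 3a, 2 rose and 1 fell (8.82%, against 7.3%, 9.28% and 7.69% of all rows). After severe injury, 3 were higher (Lamc1, Nid1 and Fbln5) and 1 lower (Vtn) than in C 8w (11.8%, against 36.8% of all rows). Without 2e or 3e, these were 5 higher and 4 lower, with Lama5 and Spp1 higher and Sparc, Hspg2 and Agrn lower in addition (26.5%, against 47.7% of all rows), and without 1a, 3a or C098, 1 higher and 1 lower. In the same group, 3 were higher (Dcn, Fbln1 and Ecm1) and 7 lower (Fn1, Eln, Sparc, Nid1, Agrn, Vtn and Ltbp4) than in the tumors (29.4%, against 32.6%). With 1 liver left out, 20.6 to 29.4% were called there, against 24.5 to 31% of all rows. Vtn, the adhesive plasma protein vitronectin, was at 705 to 878 FPKM in C 8w and 177 to 268 FPKM after severe injury, a difference of -1.78 (SE 0.20, adjusted p = 0.000325). Nid1, the nidogen that links laminin to type IV collagen, was at 3.88 to 4.22 FPKM in C 8w, 10.9 to 21 FPKM in the severe injury group and 21.6 and 52.6 FPKM in the tumor group. It rose in the tumor group by 2.79 (SE 0.36, adjusted p = 0.00231) and in the severe injury group by 1.67 (SE 0.32, adjusted p = 0.00474), where Col4a1 and Col4a2 had values below those of C 8w. Lamc1, a laminin chain, rose in both groups as well, at 1.11 (SE 0.27, adjusted p = 0.0250) and 0.94 (SE 0.24, adjusted p = 0.0158). Fn1, fibronectin, was at 47.3 to 63.4 FPKM in C 8w and at 122 and 143 FPKM in the tumor group, a rise of 1.19 (SE 0.23, adjusted p = 0.0125). Sparc, a collagen-binding protein, was at 116 FPKM in 3e against 10.7 to 40.3 FPKM elsewhere and was lower in the severe injury group than in the tumors (adjusted p = 0.00749). Dcn, the small proteoglycan decorin that coats collagen fibrils, went the other way, at 40.5 and 48.1 FPKM in the tumor group against 68.3 to 75.9 FPKM in C 8w, a fall of -0.71 (SE 0.18, adjusted p = 0.0309). Without 3e, C098 or any C 8w sample, the adjusted p of Dcn was 0.0522 to 0.114. Lamc1 lost its call in the tumor group without 1a (0.081), 2a (0.0594) or 3a (0.0793) and in the severe injury group without 1a (0.0578), 3a (0.053) or C098 (0.0526). The tumor calls of Agrn and Spp1 were lost without any 1 of 7 and 6 samples (0.0642 to 0.129 and 0.0612 to 0.119), for Agrn all but 2e and for Spp1 all but 2e and 3e, and those of Fn1 and Nid1 held. Fbln5 lost its call without any C 8w sample or C098 (0.0615 to 0.098), and against the tumors Nid1 lost its call without 3e, C096, C098 or any C 8w sample (0.067 to 0.227), Ltbp4 without 3e, 1a or 3a (0.0511 to 0.141), and Fbln1 without 3e, 1a, C097 or C098 (0.0585 to 0.139).

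The plasminogen system, which activates MMPs outside the cell, was read last. Of 7 genes tested, 3 rose in the severe injury group against C 8w (Plaur, Plat and Serpine2) and 2 fell (Plg and Serpinf2), 71.4% of the list where 36.8% of all rows were called, and 3 rose in the tumor group (Plau, Plaur and Plat), 42.9% where 18.6% were. Plat, the tissue plasminogen activator, was at 0.141 to 0.444 FPKM in C 8w, 17.5 to 22.9 FPKM in the severe injury group and 1.59 and 3.25 FPKM in the tumor group. The log2 fold change of Plat after severe injury was 4.07 (SE 0.20, adjusted p = 1.62e-06). Plg, plasminogen itself, was at 442 to 512 FPKM in C 8w and 232 to 254 FPKM in the severe injury group, a difference of -0.95 (SE 0.13, adjusted p = 0.000966). Serpine2 lost its call without any sample of these groups (0.0864 to 0.136) and passed in the tumor group against C 8w without 2e (0.000129), and the tumor call of Plau was lost without 3e, C098 or any C 8w sample (0.0505 to 0.106).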

How the data were processed

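RNA of 8 Fah-/- mouse samples was sequenced from libraries made with a TruSeq RNA kit. The authors deposited 1 table of FPKM per gene and sample; the processing notes name Bowtie 0.12.2 and the genome build mm8, and the quantifier, annotation and strand setting are not given in the sources used here. Samples were grouped by their labels into C 8w (n = 3), C 8w + A 4w (n = 3) and C 12w (n = 2). The genes and the lists of other genes were chosen with earlier results of these data known, and 2 listed genes are not reported here. Rows with at least 0.5 FPKM in at least 2 samples (12125 of 22504) were fitted on log2(FPKM + 1) with limma 3.58.1 in R 4.3.3 (eBayes with a trend), all 8 samples in 1 fit, and a gene was called where its p, adjusted by Benjamini-Hochberg over all rows, was under 0.05. The study names no test for single genes. The study treats the samples as separate animals, which the labels do not state. An exact permutation test of 3 against 3 samples cannot go below p = 0.1, so no single summed value was tested.

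Read depth is unknown, because FPKM keeps no counts; low-value steps gave relative depths of 0.973 to 1.04 within groups. Summed FPKM was 324735 to 399342 and 9797 to 10658 genes reached 1 FPKM per sample. Draws of C 12w against C 8w over 12125 genes were simulated 20 times. Of genes changed by 1 on the log2 scale, 65.9% were called, and of those changed by 2, 93.2%. False calls were 5.59%. These rates were not read apart for genes at low FPKM or with unequal spread between groups. Col4a1, for example, had an FPKM SD of 0.322 in C 8w and 8.81 in C 12w. Named genes were a fixed list of matrix genes and, in each comparison, the 5 largest rises and falls among called genes whose groups did not overlap. Shared sequence was counted in windows of 50 bases over GENCODE M21 transcripts, and promoters came from RefSeq on GRCm38.p6, matched by symbol. The alternatives were a pseudocount of 0.1, a filter of 1 FPKM in 4 samples or none, median-ratio scaling, quantile normalization, no trend in eBayes, a fit of only the groups compared, each sample left out, and a replicate block.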

Additional observations from a re-analysis of the deposited data

How the results depend on the processing

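Over 94 alternative counts of called matrix genes, 61 stayed within 1.5 times the reported count, 19 were lower and 14 higher, and of 1233 alternative fold changes of named genes no called value changed sign, while 89 fell below and 42 rose past the threshold. In C 8w + A 4w against C 8w (3 higher, 6 lower), a fit of only the 2 groups called 5 and 11, and leaving out 1 sample gave 2 to 5 higher and 3 to 11 lower. In C 12w against C 8w (8 higher, 1 lower), only the 2 groups gave 5 and 2, a pseudocount of 0.1 gave 2 lower, the filter of 1 FPKM in 4 samples gave 0 lower with 18 genes tested, median-ratio scaling and quantile normalization gave 3 lower, and leaving out 1 sample gave 2 to 19 higher and 0 to 3 lower. In C 8w + A 4w against C 12w (14 lower), the stricter filter gave 8, only the 2 groups gave 9, and leaving out 1 sample gave 9 to 18. The cause of these shifts was not tested, apart from the fewer genes under the stricter filter and the fewer samples in the smaller fits. The C 12w and C 8w samples share the numbers 2 and 3. The difference between numbers 2 and 3 had a correlation of -0.168 between these groups over 12125 genes. It rests on 1 difference per group, so it cannot decide whether same-numbered samples were paired. With the replicate block in these 4 samples, 0 matrix genes were called by limma in either direction (12 at an unadjusted p under 0.05, and 16 of all genes called). Crossing the numbers, an alternative chosen after seeing the data, also called 0 (10 at an unadjusted p under 0.05, and 2 of all genes). Median-ratio scaling moved the median of all genes from 0.12 to 0.0056 in C 8w + A 4w against C 8w and from 0.12 to 0.0083 in C 12w against C 8w, and the share of higher calls among all calls from 65.7 to 50.3% and from 65.9 to 48.3%. Quantile normalization gave 44.1% and 46.6%. The absolute depth is unknown, so no counting error can be given for the genes at low FPKM.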

Other observations

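Ratios of FPKM between chains joined in the same collagen molecule varied among the samples. The FPKM of Col4a1 was 1.39 to 1.54 times that of Col4a2 in 6 of the 8 samples, and 0.884 times in C096 and 1.19 times in C098. The ratio of Col6a1 to Col6a2 was 1.74 to 2.01 in C 8w, 2.49 to 3.76 in the severe injury (C 8w + A 4w) group, and 2.24 and 1.87 in the tumors. The ratio of Col1a2 to Col1a1 was 1.91 to 2.37 in C 8w, 2.95 to 9.67 after severe injury, and 1.38 and 1.19 in the tumors. The highest of these, in C096, rested on 0.0618 FPKM of Col1a1. The ratio of Mmp14 to Mmp15, which compares the main membrane-bound MMPs, was 0.981 to 1.4 in C 8w, 2.43 to 5.47 after severe injury, and 1.36 and 2.49 in the tumors, and that of Timp3 to Timp2 was 2.09 to 2.59, 3.16 to 5.76, and 2.26 and 1.46. These ratios were chosen after the values were seen, and no test was run on them.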
